A study of Mus musculus with 12 samples.

Results

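The Kruppel-like factor (Klf) genes described here were 10 members of that family, Klf2, Klf3, Klf4, Klf5, Klf6, Klf7, Klf9, Klf10, Klf13 and Klf15, out of 16475 probe sets tested on the arrays. Each had 1 probe set, and 15 Klf genes in all had a named probe set. The members were selected on measured values, since 2 of the observations that led to them were a rise of Klf10 with RheoSwitch ligand (RSL) in parental cells and a fall of Klf6 in the inducible clone. The ligand effects are therefore given below as a description, and the difference between the cell lines, which is computed independently of both ligand effects in this balanced design, is the comparison that was tested.

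Klf proteins are transcription factors that bind CACCC and GC-rich boxes in promoters through zinc fingers at their C-terminal end, while their N-terminal parts differ and recruit activators or repressors. Several Klf genes respond quickly to serum, growth factors or hormones, and family members have opposed roles in cell growth: Klf2, Klf4 and Klf6 are known mostly for restraining proliferation and Klf5 for promoting it. In fibroblasts and fibroblast-derived fat cell lines, the family takes part in growth arrest, matrix production and differentiation.

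RNA was profiled on Affymetrix Mm430_2.0 arrays from 3T3-ind-IER2 #11 cells, a single clone of NIH 3T3 mouse fibroblasts transfected with the 2 plasmids of the RheoSwitch system so that RSL drives mouse IER2, and from parental NIH 3T3 cells. Each cell line received 200 nM RSL or the same volume of its solvent DMSO and was harvested after 24 h, giving 4 groups of 3 arrays. The labels list medium with G418 and hygromycin for every sample. Because there is only 1 clone, the plasmids, the selection, the clone's Ier2 level without ligand and its growth from a single cell cannot be told apart as sources of a difference from parental cells. In RNA of whole cultures, fewer cells that express a gene and less of its RNA per cell cannot be told apart either.

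The array medians lay between 7.03 and 7.06 on the log2 scale, and arrays of one group correlated at 0.9981 to 0.9992. Ier2, the gene of the switch, read 9.02 ± 0.06 (SD, n = 3) in clone arrays labelled DMSO and 8.55 ± 0.10 (SD, n = 3) in those labelled RSL, against the direction the label implies (log2 difference -0.47, adjusted p = 4.64e-05 from limma). Parental arrays read 8.58 ± 0.05 under DMSO and 8.75 ± 0.07 under RSL (SD, n = 3). The region of Ier2 that these probes cover is unknown here, so the reading cannot tell whether the RSL and DMSO labels of the clone are exchanged. Directions within the clone are those of the arrays as labelled, and an exchange would turn the sign of each RSL difference in the clone. The difference between the lines averaged over both treatments would stay as it is, while its values by treatment would change. Of 8 fibroblast markers, 7 lay above the 89th percentile of every array and Pdgfrb above the 55th. Of 15 markers of epithelium, endothelium and blood cells, 14 lay below the 47th percentile of every array, and the leukocyte marker Ptprc below the 4th. The exception, the macrophage marker Csf1r, lay between the 53rd and the 61st. Between the lines, 4 of the 8 fibroblast markers were higher in the clone, 3 lower and 1 did not pass. Over all probe sets, 21.0% were higher and 21.3% lower. Col1a1 (log2 difference 0.86) and Pdgfra (0.39) were higher and Pdgfrb (-0.50) lower. Of the other markers, Cd68 (0.35) and Cdh1 (0.15) were higher and Csf1r (-0.18) and Krt18 (-0.08) lower in the clone. The part of these markers in the differences between the lines that follow was not tested.

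RefSeq sequences just before the transcription start were at hand for 8 of the 10 members, all but Klf5 and Klf10. Those of the members that were higher in the clone, and of Klf6, are shown because the boxes that Klf proteins bind can be seen in the regulatory sequence of the Klf genes themselves. Each holds 250 bases of build GRCm38.p6, read 5′ to 3′ on the strand of the gene, with CACCC and GGGCGG, on either strand, in capitals.
Klf2, chr8:72318812-72319061, plus strand: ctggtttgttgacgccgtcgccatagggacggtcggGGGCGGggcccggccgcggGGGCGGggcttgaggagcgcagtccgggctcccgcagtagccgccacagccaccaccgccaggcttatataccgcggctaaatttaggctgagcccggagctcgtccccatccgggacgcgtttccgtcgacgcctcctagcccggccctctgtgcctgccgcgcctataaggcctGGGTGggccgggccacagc
Klf3, chr5:64803271-64803520, plus strand: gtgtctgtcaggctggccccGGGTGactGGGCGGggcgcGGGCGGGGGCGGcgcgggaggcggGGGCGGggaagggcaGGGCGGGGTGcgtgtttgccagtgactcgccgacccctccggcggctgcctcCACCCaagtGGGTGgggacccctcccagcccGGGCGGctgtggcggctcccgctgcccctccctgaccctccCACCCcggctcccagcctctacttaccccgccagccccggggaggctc
Klf4, chr4:55532476-55532725, minus strand: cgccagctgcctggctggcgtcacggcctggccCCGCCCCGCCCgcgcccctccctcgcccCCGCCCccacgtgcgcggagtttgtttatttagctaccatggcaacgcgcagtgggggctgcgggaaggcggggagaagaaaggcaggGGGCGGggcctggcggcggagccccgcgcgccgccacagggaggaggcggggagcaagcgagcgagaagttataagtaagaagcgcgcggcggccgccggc
Klf6, chr13:5861239-5861488, plus strand: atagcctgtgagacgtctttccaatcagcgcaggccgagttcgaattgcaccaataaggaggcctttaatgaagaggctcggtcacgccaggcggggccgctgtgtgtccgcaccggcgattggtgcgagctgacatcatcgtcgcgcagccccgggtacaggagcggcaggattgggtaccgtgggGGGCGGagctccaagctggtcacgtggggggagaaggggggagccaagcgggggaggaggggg

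The sequence of Klf3 held 6 copies of GGGCGG and 5 of CACCC, with some copies overlapping. That of Klf4 held 4 copies of GGGCGG and 0 of CACCC, that of Klf2 2 and 1, and that of Klf6 1 and 0. Over the 8 members with a sequence, GGGCGG was present in 7, all but Klf9, and CACCC in 6, all but Klf4 and Klf6. Of 32851 RefSeq sequences of the same length, 32.7% held GGGCGG and 52.0% held CACCC. The G and C content of the members' sequences ran from 59.2% to 78.4%, against a median of 52.4% over all. The AP-1 site TGACTCA, the cyclic AMP response element TGACGTCA and the CArG box, which serum response factor binds, were found in 0 of the 8, and in 4.46%, 1.55% and 1.47% of all. A match is a run of letters and not a measured binding site.

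**Figure D1:**
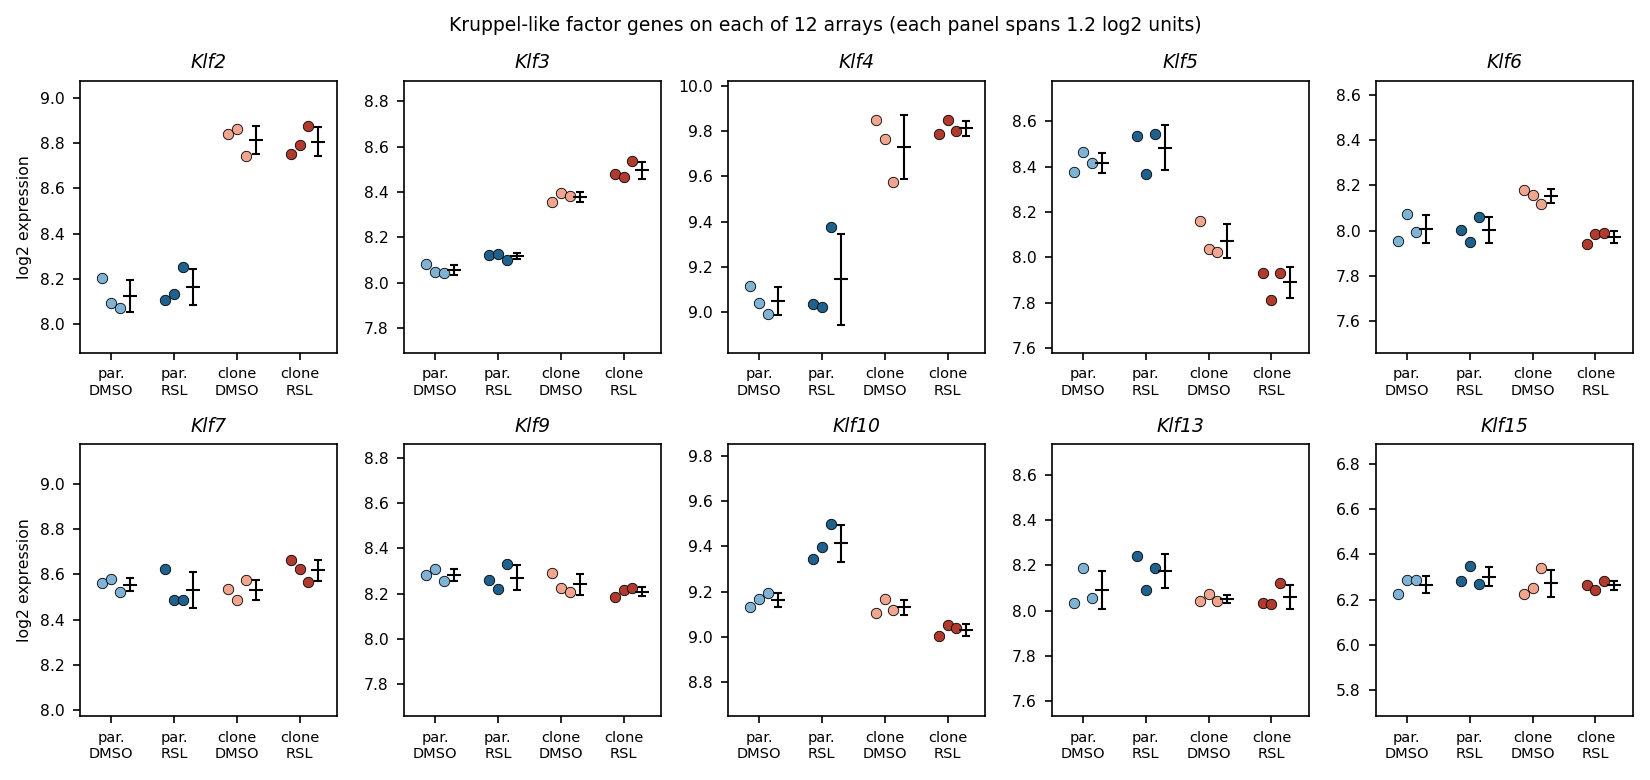
Log2 level (vertical axis) of each of the 10 Klf genes in parental (par., blue) and clone (red) cells given DMSO or RSL. A point is 1 array, and black bars show group means with their SD (n = 3). Every panel spans the same log2 range, and Klf2, Klf3, Klf4 and Klf5 separate the cell lines without overlap.

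Klf2, Klf3 and Klf4 were higher and Klf5 was lower in the clone than in parental cells, whether the cells had received DMSO or RSL. In the model over all 12 arrays, with the difference averaged over both treatments, limma called 5 of the 10 members at an adjusted p under 0.05. Klf2, Klf3 and Klf4 were the 3 higher ones, and Klf5 and Klf10 the 2 lower ones. Over all probe sets, 21.0% passed as higher and 21.3% as lower, so the count of members called is close to that background. An absolute difference larger than that of Klf4 was measured for 0.771% of all probe sets, of Klf2 for 0.783%, of Klf5 for 1.81% and of Klf3 for 3.82%. The 6 arrays of the clone and the 6 parental arrays did not overlap for 4 members, Klf2, Klf3, Klf4 and Klf5, against 25.2% of all probe sets. The median difference of the 10 members was 0.01, beside -0.01 for all probe sets.

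Klf2, a factor of quiescent lymphocytes and of endothelium under flow, read 8.84, 8.86 and 8.74 in the clone given DMSO and 8.75, 8.79 and 8.88 in the clone labelled RSL. In parental cells it read 8.20, 8.10 and 8.07 under DMSO and 8.11, 8.13 and 8.25 under RSL. All clone arrays lay above all parental arrays, and within a line the arrays of the treatments overlapped. The log2 difference was 0.67 (standard error 0.03, adjusted p = 1.19e-10 from limma), a 1.59-fold higher level.

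Klf4, a factor of growth arrest, epidermal differentiation and induced pluripotency, read 9.85, 9.76 and 9.57 in clone arrays labelled DMSO and 9.79, 9.85 and 9.80 in those labelled RSL. Parental arrays read 9.11, 9.04 and 8.99 under DMSO and 9.04, 9.02 and 9.38 under RSL. The lines did not overlap although single arrays stood off, with 9.57 the lowest of the clone and 9.38 the highest of the parental cells. The clone was higher by a log2 difference of 0.67 (standard error 0.06, adjusted p = 3.70e-08 from limma), or 1.60-fold. Without the parental array at 9.38, RSL replicate 3, the difference was 0.73, the highest of those without 1 array, and the lowest was 0.64.

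Klf3 encodes a repressor that recruits CtBP proteins. It read 8.35, 8.39 and 8.38 in the clone given DMSO, and 8.48, 8.47 and 8.54 in clone arrays labelled RSL. The parental values were 8.08, 8.05 and 8.04 under DMSO and 8.12, 8.13 and 8.10 under RSL. The 4 groups kept an order without overlap, from parental DMSO through parental RSL and clone DMSO to clone RSL, and the SD within groups, pooled over the 4, was 0.02. The difference between the lines was 0.35 on the log2 scale (standard error 0.02, adjusted p = 1.58e-09 from limma), or 1.27-fold.

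Klf5, a factor that promotes proliferation of epithelial and smooth muscle cells and fat cell differentiation, ran in the opposite direction. It read 8.16, 8.03 and 8.02 in the clone given DMSO and 7.93, 7.81 and 7.93 in clone arrays labelled RSL. In parental cells it read 8.37, 8.46 and 8.42 under DMSO and 8.53, 8.37 and 8.55 under RSL. The clone was lower in each array, by a log2 difference of -0.47 (standard error 0.04, adjusted p = 1.65e-08 from limma), which is 1.38-fold. The difference was -0.35 (95% interval -0.45 to -0.24) under DMSO and -0.59 (95% interval -0.70 to -0.48) under RSL.

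**Figure D2:**
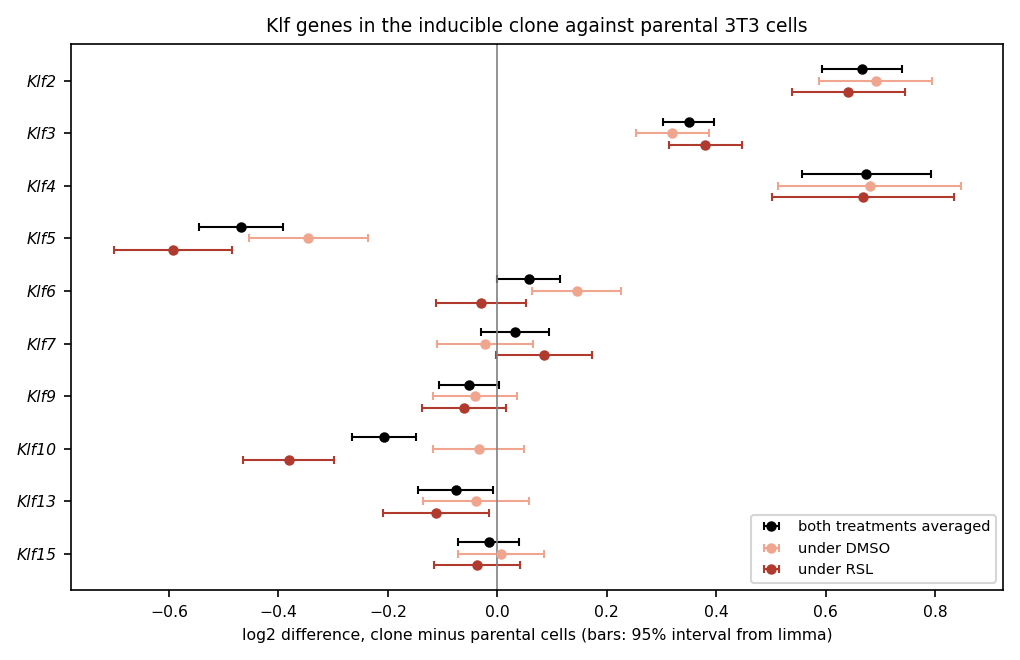
Log2 difference, clone minus parental cells, of each Klf gene from limma over both treatments (black), under DMSO (light red) and under RSL (dark red), with 95% intervals over 12 arrays. Klf2, Klf3 and Klf4 lie to the right of 0 and Klf5 to the left under both treatments, whereas Klf10 lies clearly to the left of 0 under RSL at -0.38 and near 0 under DMSO at -0.03.

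Klf10, first described as a gene induced early by TGF-beta, passed as lower in the clone with a log2 difference of -0.21 (standard error 0.03, adjusted p = 9.67e-06 from limma), but this average rests on the RSL arrays. The difference was -0.03 (95% interval -0.12 to 0.05) under DMSO and -0.38 (95% interval -0.46 to -0.30) under RSL. With the 6 DMSO arrays alone the gene did not pass (adjusted p = 0.544 from limma). Since the level in parental arrays given RSL took part in the choice of this gene, nothing is read from its call.

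The other 5 members did not pass between the lines. Klf13, a factor of T cells and of cell survival, had a log2 difference of -0.08 (95% interval -0.14 to -0.01, adjusted p = 0.0705 from limma). Without clone RSL replicate 3, parental DMSO replicate 1 or parental RSL replicate 2 it passed (adjusted p = 0.0349, 0.0359 and 0.0236 from limma), with differences of -0.09, -0.09 and -0.10. Klf6 had a difference of 0.06 (95% interval -0.00 to 0.12, adjusted p = 0.104 from limma), with 0.14 under DMSO and -0.03 under RSL. It passed with the 6 DMSO arrays alone (adjusted p = 0.0143 from limma). The level in clone arrays labelled DMSO took part in the choice of Klf6, so nothing is read from that call. Klf6 also passed without parental DMSO replicate 2 (adjusted p = 0.0371 from limma) and without parental RSL replicate 3 (adjusted p = 0.0499 from limma), both with a difference of 0.07. Klf9, which responds to thyroid hormone and glucocorticoids, had -0.05 (95% interval -0.11 to 0.00) and Klf7, known from neurons, 0.03 (95% interval -0.03 to 0.09). Both read above the 70th percentile of every array. Klf15, a glucocorticoid-responsive factor of amino acid and glucose metabolism, read between 6.22 and 6.35 on all arrays, at the first quartile of the arrays (6.23 to 6.30), and had a difference of -0.02 (95% interval -0.07 to 0.04). For Klf2, Klf3, Klf4 and Klf5 the call was the same without any 1 array and under each other alternative run.

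**Figure D3:**
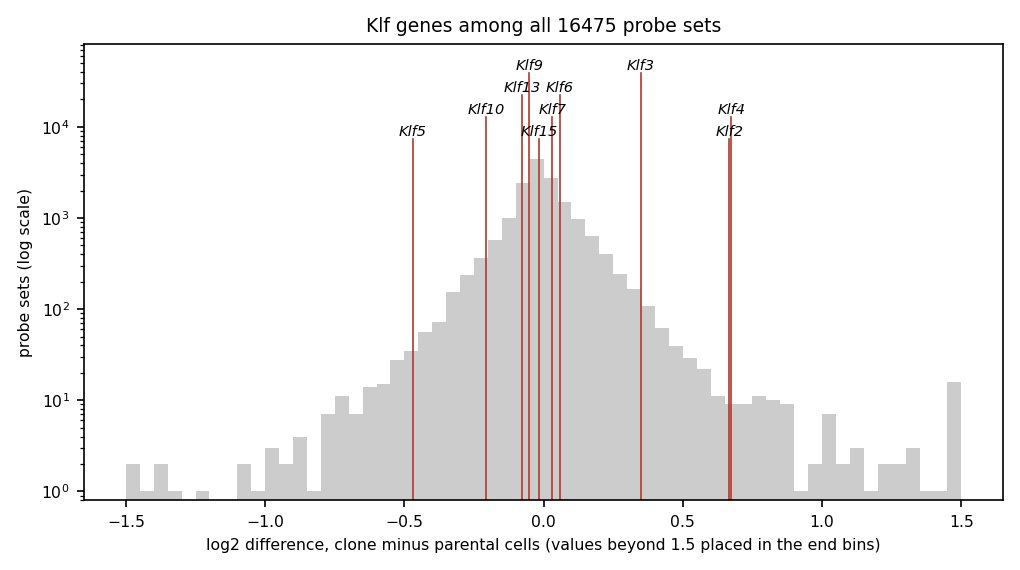
Distribution of the log2 difference, clone minus parental cells, over all 16475 probe sets (grey, log scale of counts, values beyond the axis ends placed in the end bins), with the 10 Klf genes as red lines whose heights only separate the names. Klf2 at 0.67, Klf4 at 0.67 and Klf5 at -0.47 lie in the tails and Klf6, Klf7, Klf9, Klf13 and Klf15 in the central peak.

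Klf6 encodes a zinc finger factor that answers tissue injury and restrains growth. In the clone it read 8.18, 8.16 and 8.12 under DMSO and 7.94, 7.99 and 7.99 in the arrays labelled RSL, and the groups did not overlap. The log2 difference, RSL minus DMSO, was -0.18 (standard error 0.04). In parental cells it read 7.95, 8.07 and 7.99 under DMSO and 8.00, 7.95 and 8.06 under RSL, with overlapping groups and a difference of -0.00 (standard error 0.04). The clone arrays labelled RSL overlapped the parental arrays, and those labelled DMSO lay above all of these.

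Klf10 read 9.13, 9.17 and 9.19 in parental cells under DMSO and 9.34, 9.40 and 9.50 under RSL, a log2 difference of 0.25 (standard error 0.04). In the clone it read 9.11, 9.17 and 9.12 under DMSO and 9.00, 9.05 and 9.04 in the arrays labelled RSL, a difference of -0.10 (standard error 0.04). Treated and control arrays did not overlap in either line, and as labelled they lay in opposite order. Under DMSO the lines overlapped.

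Of the 10 members, 1 (Klf6) was past the threshold as lower and 0 as higher between arrays labelled RSL and DMSO in the clone, where 1.21% of all probe sets were called lower and 1.32% higher. In parental cells 1 (Klf10) was past it as higher and 0 as lower, where 0.0243% and 0.00607% were. The rule that chose the members used both contrasts, so nothing is read from these counts. Klf6 was not past the threshold without clone DMSO replicate 1, clone DMSO replicate 2 or clone RSL replicate 1. Klf10 was not past it without any 1 parental array except RSL replicate 1. Their differences without 1 array ran from -0.20 to -0.16 for Klf6 and from 0.20 to 0.28 for Klf10.

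Among the other members, Klf3 had differences of 0.12 in the clone and 0.06 in parental cells (standard error 0.03 for both), with all arrays labelled RSL above all labelled DMSO in each line. Klf5 had -0.18 in the clone, where all arrays labelled RSL were the lower ones, and 0.07 in parental cells, where they overlapped (standard error 0.05 for both). In all, arrays labelled RSL lay entirely above those labelled DMSO in the clone for Klf3, against 9.34% of all probe sets, and entirely below for Klf5, Klf6 and Klf10, against 8.75%. In parental cells they lay above for Klf3 and Klf10, against 7.12%, and below for 0 members, against 6.15%. Klf4 had differences of 0.08 and 0.10, but without clone DMSO replicate 3 the former was 0.01, and without parental RSL replicate 3 the latter was -0.02. Klf2, Klf7, Klf9, Klf13 and Klf15 had overlapping groups in both lines and differences between -0.03 and 0.08. The median over the members was -0.01 in the clone and 0.05 in parental cells, beside 0.00 and 0.01 for all probe sets.

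**Figure D4:**
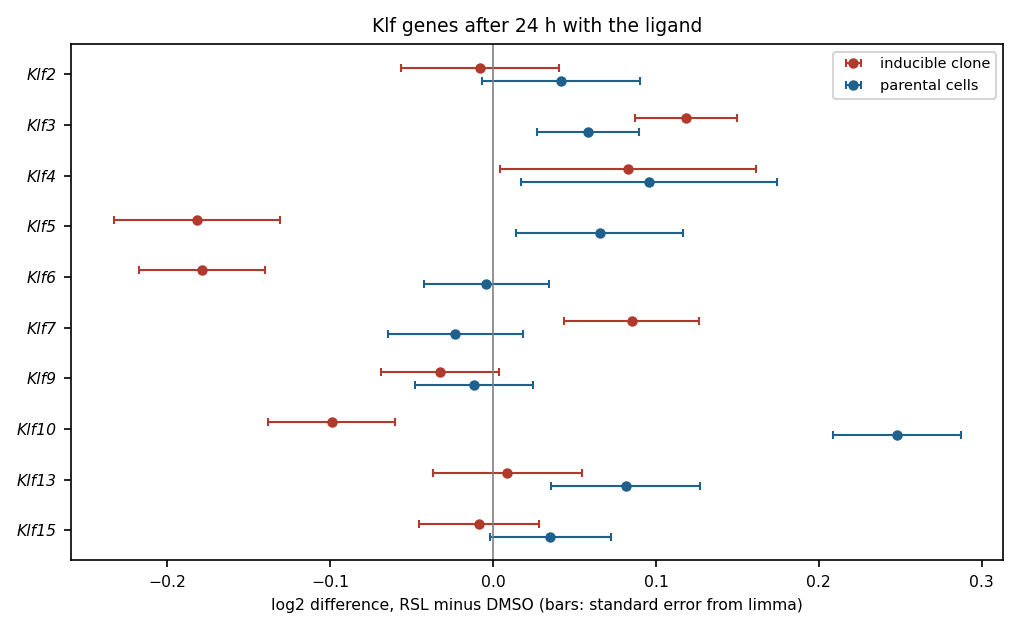
Log2 difference, RSL minus DMSO, of each Klf gene in the clone (red) and in parental cells (blue), with the standard error from limma (n = 3 arrays per group). Klf6 at -0.18 and Klf5 at -0.18 lie lowest in the clone and Klf10 at 0.25 highest in parental cells. These values took part in the choice of the genes.

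The genes whose course over the arrays was most like that of Klf6 were Pvr, a nectin-like adhesion receptor (r = 0.970), Selenoo, a selenoprotein of mitochondria (r = 0.963), Smim3 (r = 0.944), Ndrg1, a stress and hypoxia response gene (r = 0.942), and Lppos (r = 0.941). The measure was Pearson's r over the 12 arrays after the mean of each cell line was subtracted, and it is a description in which the arrays share line and treatment. Within the 6 parental arrays alone, where Klf6 hardly differed between treatments, the 5 had r between 0.712 and 0.979. The parental arrays were among the 12 from which the 5 were picked, so high values there follow in part from the pick. Klf10 was most like Krtap5-2, a keratin-associated protein gene (r = 0.910), Ceacam9 (r = 0.900), Tril, a Toll-like receptor interactor (r = 0.895), Pstpip2, an adaptor of the actin cytoskeleton (r = 0.878), and Rcan3, a calcineurin regulator (r = 0.876). Each of these 5 was above 0 in parental cells with RSL, at 0.06 to 0.19. In clone arrays labelled RSL they lay closer to 0 and below it, at -0.07 to -0.01. Within the 6 clone arrays alone, r was lowest for Pstpip2, at 0.487, and was 0.515 for Ceacam9. The 5 were picked for their likeness to Klf10, so these signs follow in part from the pick. Each set of 5 was the highest among 15780 named probe sets. How high r would reach among so many without any relation was not tested.

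The remaining family and the genes around it were described through lists. Of 12 measured other Klf and Sp factors, the Sp factors being relatives that bind the same boxes, 2 were higher in the clone, 2 lower and 8 did not pass, with a median difference of -0.03. Sp3 was higher by 0.14 (standard error 0.03) and Sp1, which acts at most GC boxes, lower by a difference of -0.11 (standard error 0.02), while the 5 other Klf genes, Klf1, Klf11, Klf12, Klf16 and Klf17, did not pass. Sp3 stood at 0.04 with the 6 DMSO arrays alone, where it did not pass (adjusted p = 0.561 from limma), and at 0.24 with the 6 RSL arrays alone. None of these 12 passed between RSL and DMSO in either line.

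Of 14 cofactors and ubiquitin ligases of Klf proteins, 5 were higher in the clone, 2 lower and 7 did not pass, with a median of 0.04. Wwp1, a ubiquitin ligase that targets Klf2 and Klf5, was higher in the clone, with a log2 difference of 0.42 (standard error 0.03, adjusted p = 1.23e-09 from limma). Crebbp, a histone acetyltransferase gene, was higher by 0.25 (standard error 0.04). The ERK5 and MEF2 arm is the kinase path that turns on Klf2 and Klf4 in endothelium. Of its 7 genes, 4 were higher, 2 lower and 1 did not pass, with a median of 0.10. Mapk7, which encodes ERK5, was higher by 0.16 (standard error 0.02), whereas Map2k5, its activating kinase, was lower with a difference of -0.21 (standard error 0.03) and Mef2c with -0.28 (standard error 0.02). Mef2c read between 6.39 and 6.75 on all arrays, below the array medians. None of either list passed between RSL and DMSO.

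Of 10 genes of the TGF-beta arm, to which Klf10 belongs, 2 were higher in the clone, 4 lower and 4 did not pass, with a median of -0.07. The ligand genes Tgfb1 and Tgfb3 were lower, with differences of -0.26 and -0.27, and the receptor gene Tgfbr2 was higher, at 0.23 (standard error 0.03, 0.03 and 0.02). The difference of Tgfb3 was -0.39 with the 6 DMSO arrays alone and -0.15 with the 6 RSL arrays alone. Smad7, the inhibitory Smad that Klf10 is known to repress, fell by 0.23 on the log2 scale between clone arrays labelled DMSO and RSL (standard error 0.04, adjusted p = 0.00378 from limma). It was the only gene of the arm past the threshold there, and its difference was -0.02 in parental cells. Klf10 itself had -0.10 in the same clone arrays and 0.25 in parental cells, and a link between Klf10 and Smad7 was not tested. Whether the effects differ between the lines was not tested.

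Of the glucocorticoid receptor and 6 of its targets, 3 were higher in the clone, 2 lower and 2 did not pass, with a median of 0.01. Dusp1, a phosphatase of MAP kinases, was higher by 0.76 (standard error 0.03, adjusted p = 2.54e-11 from limma) and Tsc22d3, which encodes the leucine zipper protein GILZ, by 0.28 (standard error 0.03), with 0.18 in the 6 DMSO arrays alone and 0.38 in the 6 RSL arrays alone. Dusp1 also rose by 0.40 in clone arrays labelled RSL (standard error 0.05, adjusted p = 0.000253 from limma), against 0.07 in parental cells. A difference of this RSL effect between the lines was not tested. Between the lines, Per1 was higher as well, at 0.20. The receptor gene Nr3c1 was lower in the clone, at -0.14, and so was the target Sgk1, at -0.25 (standard error 0.04). Fkbp5, a widely used glucocorticoid target, did not pass at 0.01, nor did Zbtb16 at -0.01.

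Klf9, Klf10 and Klf15 are known as genes with a daily rhythm, and 11 genes of the circadian clock were examined beside them. Between the lines 3 were higher, 2 lower and 6 did not pass, with a median of 0.06, and Cry1, a repressor of the clock, was lower with a difference of -0.35 (standard error 0.05). In clone arrays labelled RSL, Nr1d2, Dbp and Tef rose and Arntl fell, while 7 did not pass. These 3 higher and 1 lower of 11 stand beside 1.32% higher and 1.21% lower over all probe sets, as a description of a list chosen with results known. The 4 genes were named after their values were seen. Nr1d2, a nuclear receptor that represses Arntl, rose by 0.28 (standard error 0.03, adjusted p = 0.000111 from limma). Dbp and Tef, related PAR-domain factors, rose by 0.21 (standard error 0.04, adjusted p = 0.00451 from limma) and 0.18 (standard error 0.04, adjusted p = 0.0147 from limma). Arntl, the clock activator BMAL1, fell by 0.17 on the log2 scale (standard error 0.04, adjusted p = 0.0136 from limma). In parental cells the 4 had -0.07, -0.06, 0.02 and 0.06 and none passed. Whether these effects differ between the lines was not tested. The calls of Arntl and Tef were lost without some of the arrays, with adjusted p = 0.0558 to 0.0685 for Arntl without clone DMSO replicate 1 or 3 or clone RSL replicate 1 or 2, and 0.0959 and 0.0606 for Tef without clone DMSO replicate 1 and clone RSL replicate 3. Without 1 array their differences stayed between -0.19 and -0.16 for Arntl and between 0.16 and 0.20 for Tef. Klf9, Klf10 and Klf15 had differences of -0.03, -0.10 and -0.01 in the same clone arrays, without overlap of the groups for Klf10.

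Of 6 regulators of fat cell differentiation, a process in which Klf4, Klf5 and Klf15 are known to act, 3 were higher in the clone, 0 lower and 3 did not pass, with a median of 0.10. Cebpb was higher by 0.43 (standard error 0.03, adjusted p = 9.41e-09 from limma). Ebf1 was higher by 0.29 (standard error 0.03), with 0.17 in the 6 DMSO arrays alone and 0.41 in the 6 RSL arrays alone. Pparg, at 0.01, read at most at the 29th percentile of an array. Of 13 genes described as targets of Klf factors, 5 were higher, 3 lower and 5 did not pass, with a median of 0.05. Txnip, a thioredoxin inhibitor and growth suppressor, was higher by 0.62 (standard error 0.03, adjusted p = 1.73e-11 from limma). Tagln, a smooth muscle gene, was higher by 0.28 and Plau, the urokinase gene, by 0.23 (standard error 0.02 for both). Plau read low, between 6.21 and 6.47 on all arrays and at most at the 35th percentile of an array. Acta2 (0.29) and Thbd (0.15) were the remaining higher genes. Pdgfa, a growth factor gene, was lower with a difference of -0.30, as were Ccnd1 (-0.18) and Bcat2 (-0.16). Cdkn1a, the cell cycle inhibitor p21, did not pass at 0.03. Cdkn1b (0.05), S1pr1 (-0.07), Eng (-0.08) and Prodh (0.05) did not pass either. Whether the levels of the Klf genes bear on any of these genes was not tested. None of the fat cell regulators or of these targets passed between RSL and DMSO in either line. The calls of each list between the lines stand beside 21.0% higher and 21.3% lower over all probe sets, and no list is called particular from its count.

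**Figure D5:**
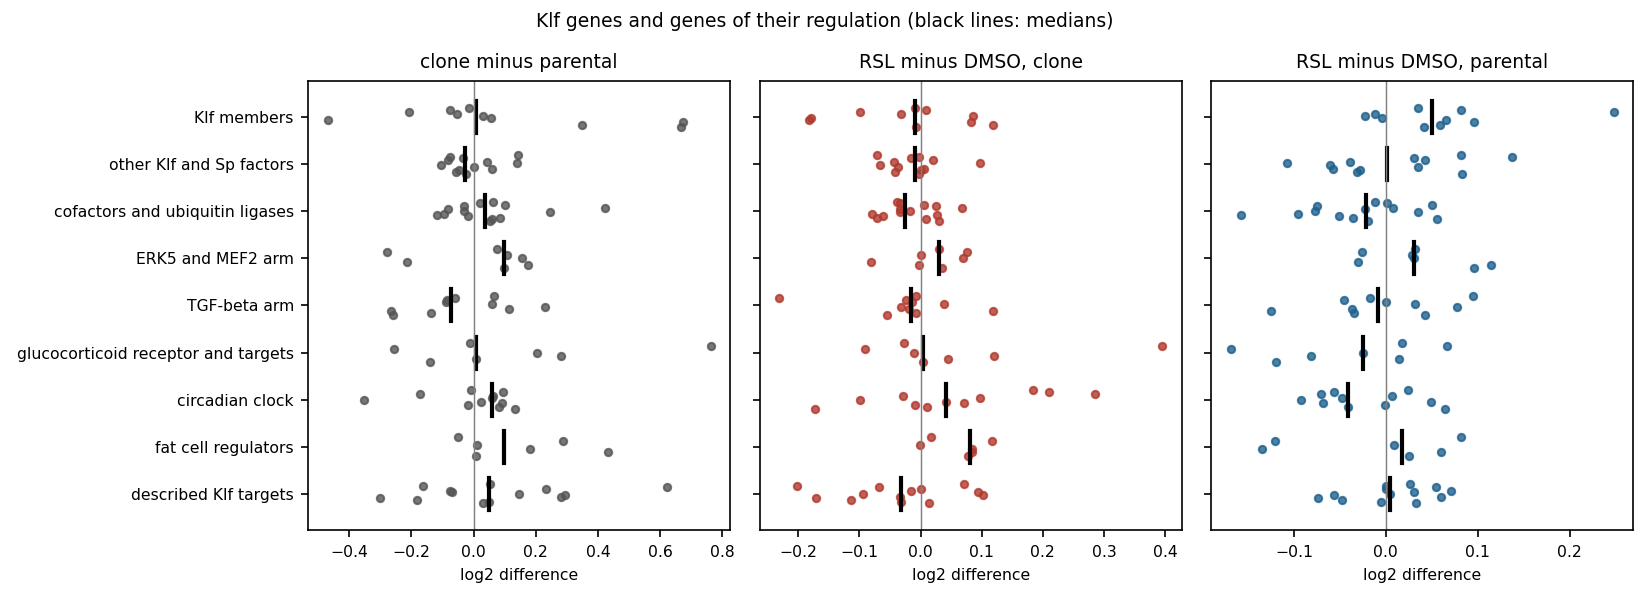
Log2 differences of the 10 Klf genes and of the genes of 8 lists (points), with the median of each list (black lines), for clone minus parental cells (grey) and for RSL minus DMSO in the clone (red) and in parental cells (blue). The x axes differ between panels. Klf2 and Klf4 at 0.67 lie above every gene of the other Klf and Sp factors in the left panel. Of those factors, Klf1, Klf12, Klf17, Sp4, Sp5, Sp6 and Sp8 read below the array medians. Dusp1 at 0.40 lies farthest right in the middle panel.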

How the data were processed

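RNA of 2 cell lines under 2 treatments was measured on 12 arrays, 3 per group. The labels call these biological replicates and do not tell whether each came from its own culture, so the p-values may reflect technical spread alone. The authors deposited log2 values, made with a Custom CDF (version 10) of Entrez-based genes, RMA background correction and quantile normalization. That the base of the logarithm is 2 was inferred from how high the values reach, and the method of combining probes was not stated. Of 16539 probe sets, 64 control sets were removed and all remaining 16475 entered the test, with no filter on dim ones. Names come from the platform annotation, in which 15780 have 1 gene symbol. One linear model with 4 group means and no block was fitted across all genes in limma 3.58.1 (R 4.3.3), with 8 residual degrees of freedom and Benjamini-Hochberg adjustment and with calls made at an adjusted p under 0.05. The scripts were tested on simulated data. The members and lists were chosen with earlier results of these data known. All members were named, and of each list up to 3 genes with the smallest p between the lines. Beyond that rule, Arntl, Nr1d2, Dbp, Tef, Smad7 and Dusp1 were named for the RSL effect after their values were seen. Named beyond it as well, after their values were seen, were Nr3c1, Fkbp5, Sgk1, Zbtb16, Pparg, Csf1r, Pdgfrb, Sp4, Sp5 and Sp6. The other Klf genes and the remaining described Klf targets were also named in this way. Listed genes without a matched probe set were not analysed here. Alternatives were a replicate block, a filter, an intensity trend, array weights, other normalizations, subsets of arrays, the methods' one-way analysis and leaving out each array. The number of arrays limits the precision.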

Additional observations from a re-analysis of the deposited data

Results flagged for a closer look

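As the arrays are labelled, Klf10 moved in opposite directions with RSL in the 2 cell lines. Each clone array labelled RSL lay below each clone array labelled DMSO, with a log2 difference of -0.10, and each parental array given RSL lay above each given DMSO, with a log2 difference of 0.25. This difference between the lines was not tested, because both ligand effects had a part in choosing the gene. Arrays moved apart in opposite directions in this way for 156 of all 16475 probe sets, or 0.947%. If the clone's RSL and DMSO labels were exchanged, which the Ier2 reading leaves unsettled, the clone value of Klf10 would be 0.10, in the same direction as in parental cells, and 294 probe sets, or 1.78%, would move oppositely.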

How the results depend on the processing

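Between the lines, 5 members were called, and 5 or 6 under each alternative run. Klf2, Klf3, Klf4 and Klf5 were called in each, Klf13 also with array weights or repeated quantile normalization (adjusted p = 0.0390 and 0.0308 from limma), and Klf9 at the one-way nominal p. With the replicate block 5 were called as well, and the block changed no call of a member. The numbers mark no shared culture in the labels, and deviations of same-numbered arrays correlated between -0.30 and 0.21. For RSL in the clone, 1 member was past the threshold, and 2 without the lowest 40% of probe sets or with an intensity trend (Klf3 and Klf6), 3 with array weights (with Klf5), 0 in the methods' one-way analysis after Benjamini-Hochberg adjustment and 4 at its nominal p (with Klf10). In parental cells 1 was past it, and 0 with the 6 parental arrays alone, 0 in the one-way analysis after adjustment and 2 at its nominal p (Klf3 and Klf10). Without 1 array the count was between 0 and 1 in both lines. Over all probe sets, 418 were called for RSL in the clone, 204 to 291 without 1 array, 736 with array weights, and 1 or 1913 in the one-way analysis after adjustment or at its nominal p, and 5 in parental cells, 106 with array weights and 0 or 1226 in the one-way analysis. Nr1d2, lower in the clone by a difference of -0.17, was at 0.0067 with the 6 RSL arrays alone. After the same adjustment, the one-way analysis called none of Smad7, Dusp1, Nr1d2, Dbp, Tef and Arntl in the clone (adjusted p = 0.0711 to 0.188). The causes were not tested.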
